A study of Mus musculus with 12 samples.

Results

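The genes described here belong to the pathway that loads and displays peptides on major histocompatibility complex (MHC) class II molecules. The genes are H2-Aa, H2-Ab1, H2-Eb1, Cd74, Ciita, H2-DMa and H2-DMb1. They are picked out by gene symbol, and the 7 of them are among 17468 genes listed in at least 1 of 12 mouse liver RNA-seq libraries. After a filter on low counts 12587 genes were tested, and all 7 were among them. The libraries came from flash-frozen whole liver of 10-month-old mice on a mixed 129/B6 background, fed a diet labelled LF or HF for 8 months. The floxed mice carry loxP sites in the thrombospondin 1 gene (Thbs1), have the genotype label WT and serve as controls. The other mice are labelled as lacking thrombospondin 1, a secreted matrix protein, in macrophages alone. The driver that removes the gene in macrophages is not given in the sources used here, and the control label does not say whether the floxed mice carry a driver. The diet and the genotype together give 4 groups of 3 libraries: floxed and knockout on LF, and floxed and knockout on HF. Titles number the libraries within a group, and nothing says whether each is a mouse of its own, so that a p-value refers to the spread among libraries, which may be technical.

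Class II molecules are pairs of an alpha and a beta chain that present peptides from the endosomes and lysosomes to CD4+ T cells. New chain pairs are escorted by the invariant chain (Cd74), whose fragment CLIP fills the groove until the DM heterodimer (H2-DMa with H2-DMb1) exchanges it for a peptide. Transcription of these genes depends on a shared promoter module bound by the RFX, CREB and NF-Y factors, on which the transactivator CIITA (Ciita) assembles. Interferon gamma induces Ciita. In liver, class II is known from dendritic cells, B cells, Kupffer cells (the resident macrophages) and other macrophages, and at a lower level from sinusoidal endothelium.

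The promoter windows of 3 class II genes carry that module in a form that can be seen by eye, so they are printed first, with that of H2-DMb2, the close relative of H2-DMb1. Each window runs from 250 bases before to 50 bases after the annotated start and is given 5′ to 3′ on the gene's own strand, from RefSeq on build GRCm38.p6. Capitals mark matches to CTNGNAACT, a pattern of the X box that RFX binds, and to TGATTGG, a pattern of the Y box that NF-Y binds.
H2-Aa, chr17:34287774-34288073, minus strand: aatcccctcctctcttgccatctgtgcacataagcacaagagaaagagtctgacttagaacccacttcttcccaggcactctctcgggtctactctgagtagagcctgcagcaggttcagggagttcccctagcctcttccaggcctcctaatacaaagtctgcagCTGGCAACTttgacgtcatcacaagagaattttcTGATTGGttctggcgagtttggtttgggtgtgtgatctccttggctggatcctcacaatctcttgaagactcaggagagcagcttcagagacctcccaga
H2-Eb1, chr17:34305617-34305916, plus strand: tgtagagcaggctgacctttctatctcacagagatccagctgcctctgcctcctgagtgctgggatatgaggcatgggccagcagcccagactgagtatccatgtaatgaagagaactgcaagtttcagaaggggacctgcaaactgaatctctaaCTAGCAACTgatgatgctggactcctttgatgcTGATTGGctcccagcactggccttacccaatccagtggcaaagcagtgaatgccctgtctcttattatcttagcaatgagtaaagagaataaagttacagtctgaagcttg
H2-DMb1, chr17:34152941-34153240, plus strand: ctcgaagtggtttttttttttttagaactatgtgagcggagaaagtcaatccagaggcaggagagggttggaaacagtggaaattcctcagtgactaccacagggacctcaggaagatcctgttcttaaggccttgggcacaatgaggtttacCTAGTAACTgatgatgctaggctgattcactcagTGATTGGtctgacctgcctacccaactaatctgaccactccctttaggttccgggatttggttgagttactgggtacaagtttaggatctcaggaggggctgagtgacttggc
H2-DMb2, chr17:34144999-34145298, plus strand: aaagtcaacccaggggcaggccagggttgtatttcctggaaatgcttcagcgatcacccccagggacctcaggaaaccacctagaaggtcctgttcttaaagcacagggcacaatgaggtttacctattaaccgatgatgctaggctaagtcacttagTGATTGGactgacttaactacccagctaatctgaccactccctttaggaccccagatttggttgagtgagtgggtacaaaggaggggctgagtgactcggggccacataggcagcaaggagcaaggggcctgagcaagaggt

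In the H2-Aa, H2-Eb1 and H2-DMb1 windows the X match began 84, 94 and 97 bases before the start, in that order. A Y match followed on the same strand, with 25, 24 and 25 bases between the matches. The H2-DMb2 window held the Y pattern alone, and both H2-DMa windows in the table held neither pattern, which says only that these letters are not in those windows. Over 32851 RefSeq windows of the same length, read on both strands, CTNGNAACT occurred in 4.1% and TGATTGG in 7.82%, and both occurred in 0.35% (115 windows). The X pattern was written after these promoters had been read, so its presence in them is a description. H2-Ab1 and Ciita have no entry in the table. Cd74 was set aside before the search, so whether its window holds these patterns is not given here.

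The libraries were of nearly equal size, with 16131506 to 16536016 estimated counts each, of which the 7 class II genes held 1289 to 9714. Loci without a gene name took 6.65 to 17.3% of the counts and were left out. Thbs1, the targeted gene, did not have lower values under the knockout label. In FPKM (fragments per kilobase of transcript, scaled to library depth) it ranged from 0.06 to 0.11 in floxed and from 0.08 to 0.55 in knockout livers on LF, and from 0.31 to 0.75 and from 0.16 to 1.63, respectively, on HF. Whole liver holds Thbs1 RNA from any cell, so this does not test a deletion in macrophages. In the groups LF knockout and HF floxed, 1 pair of libraries each was far more alike than any other pair. The mean chi-square per degree of freedom over genes was 2.85 for LF knockout 2 and 3, and 9.32 for HF floxed 1 and 2, against 51.1 to 539 for the other 10 pairs. Both values are above sampling noise, which does not settle whether the libraries of a pair come from separate mice. They were kept as separate samples. Results of the main edgeR fit that change when each pair is averaged are given as such. DESeq2 and the fits on the compared groups alone were not run with averaged pairs.

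The alpha and beta chains of the A molecule were present at nearly the same level in every liver. H2-Aa, the A alpha chain, stood at 11.89, 26.7 and 21.32 FPKM in the LF floxed libraries and at 16.11, 36.14 and 38.01 in LF knockout. It stood at 93.07, 92.25 and 55.6 in HF floxed and at 27.75, 49.57 and 34.21 in HF knockout. All 3 HF floxed libraries lay above the other 9. HF knockout overlapped LF knockout and lay just above LF floxed, and both LF groups overlapped.

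H2-Ab1, the A beta chain, read 11.46, 28.88 and 23.95 FPKM in LF floxed and 17.38, 34.78 and 38.31 in LF knockout. On the HF diet it read 96.59, 83.35 and 59.29 in floxed and 27.15, 49.17 and 29.11 in knockout livers. Again the HF floxed libraries lay above the other 9. H2-Eb1, the beta chain of the E molecule, was lower throughout, at 5.44, 8.95 and 6.01 FPKM in LF floxed and 5.26, 16.7 and 16.92 in LF knockout. It reached 43.29, 37.6 and 24.04 in HF floxed and 11.04, 27.82 and 12.33 in HF knockout. Here the second HF knockout library exceeded the lowest HF floxed library. The symbol H2-Ea-ps, of the E alpha chain, was not found among the genes listed. RNA of H2-Eb1 alone does not show whether an E molecule was made.

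Cd74, the invariant chain, was the most abundant of the 7 transcripts in each library. It measured 33.57, 55.75 and 55.95 FPKM in floxed and 40.15, 91.27 and 98.9 in knockout livers on LF. HF livers had 232.42, 203.53 and 135.05 when floxed and 73.5, 151.5 and 81.78 when labelled knockout. The second HF knockout library lay within the HF floxed range, and the other 2 lay within the LF knockout range.

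The DM chaperone genes were scarcer, with H2-DMa at 0.067 to 0.146 and H2-DMb1 at 0.0997 to 0.231 times the FPKM of H2-Aa. H2-DMa read 1.23, 2.12 and 3.12 FPKM in floxed and 2.1, 3.49 and 3.48 in knockout livers on LF. With HF it was 6.61, 6.18 and 3.86 in floxed and 3.82, 4.29 and 2.98 in knockout. H2-DMb1 read 1.93, 3.68 and 4.25 FPKM in floxed and 2.19, 4.22 and 3.79 in knockout livers on LF. Under HF the values were 12.24, 11.86 and 6.42 in floxed and 4.07, 5.68 and 7.89 in knockout. For both, HF floxed lay above LF floxed and overlapped HF knockout. The H2-DMb1 transcript is 94.8% identical to that of H2-DMb2 over 1211 aligned bases, so the division of reads between them is uncertain. H2-DMb2 was taken as 0 in 11 libraries and stood at 0.5 FPKM in LF knockout 3.

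Ciita, the transactivator, was near the limit of detection, with 3 to 53 estimated counts per library. Its FPKM was 0.04, 0.08 and 0.13 in floxed and 0.13, 0.16 and 0.26 in knockout livers on LF. On HF its values were 0.62, 0.59 and 0.29 in floxed and 0.11, 0.52 and 0.25 in knockout. HF floxed lay above both LF groups, and HF knockout spanned from LF levels to HF floxed levels.

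**Figure D1:**
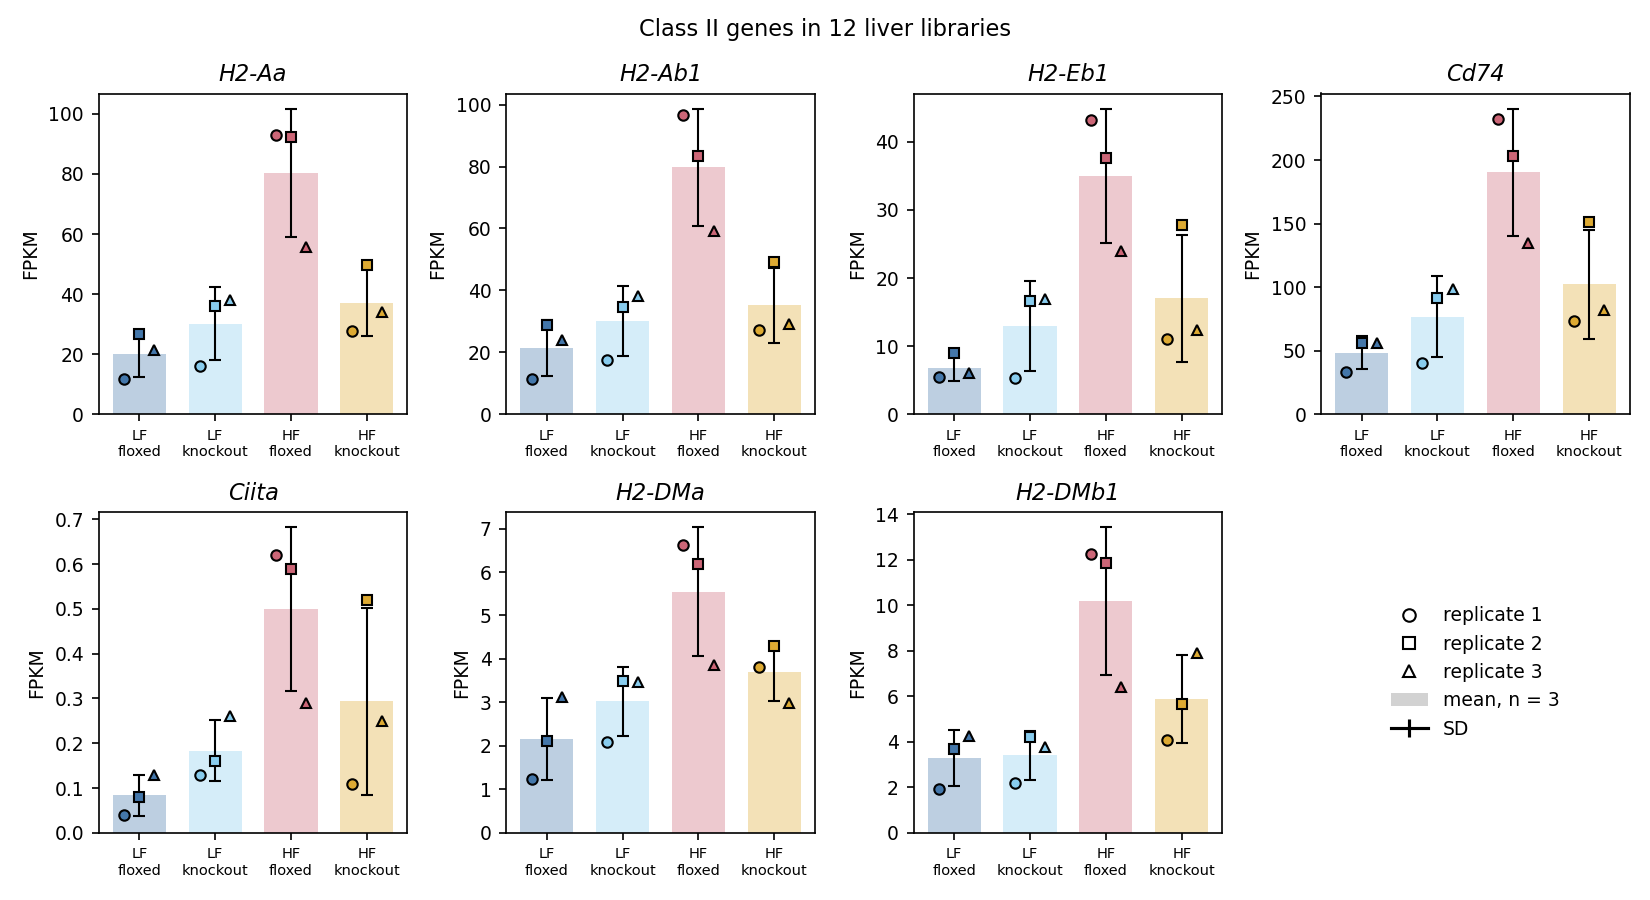
FPKM of the 7 class II genes in each of the 12 libraries, by group; points are libraries, bars are means of 3 libraries and error bars are SD. In each panel the HF floxed mean is the highest and the LF floxed mean the lowest, as for H2-Aa with 80.3 against 20 FPKM.

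The mean FPKM of each of the 7 genes was highest in HF floxed, followed by HF knockout, then LF knockout, and lowest in LF floxed. For H2-Aa the means were 80.3 ± 21.4, 37.2 ± 11.2, 30.1 ± 12.1 and 20 ± 7.5 (SD, n = 3 each), and for Cd74 they were 190 ± 50.0, 102 ± 42.8, 76.8 ± 31.9 and 48.4 ± 12.9 (SD, n = 3 each). In FPKM, HF knockout overlapped LF knockout and LF knockout overlapped LF floxed for all 7 genes. The highest group mean was 2.57 (H2-DMa) to 6 times (Ciita) the lowest. The highest library was the first of HF floxed for all 7 genes. The lowest was the first of LF floxed for 6 of them and the first of LF knockout for H2-Eb1.

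Ratios between the genes varied less than the genes themselves. H2-Aa differed 7.83-fold between its highest and lowest library and H2-Ab1 8.43-fold, while the ratio of H2-Ab1 to H2-Aa in FPKM stayed between 0.851 and 1.12, with a mean of 1.00 ± 0.0790 (SD, n = 12). Cd74 stood at 2.09 to 3.06 times H2-Aa, and H2-Eb1 at 0.282 to 0.561 times H2-Aa. The DM pair was less even: H2-DMb1 stood at 1.04 to 2.65 times H2-DMa, with the high extreme in HF knockout 3. Over the 12 libraries the log2 CPM (counts scaled to library size) of the members correlated in pairs with Pearson r from 0.806 (Ciita with H2-DMb1) to 0.989 (H2-Aa with H2-Ab1). With group means removed, r ran from 0.536 (Ciita with H2-DMa) to 0.973 (H2-Aa with H2-Ab1). All points share their libraries and depth, so these values describe the set and were not tested.

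**Figure D2:**
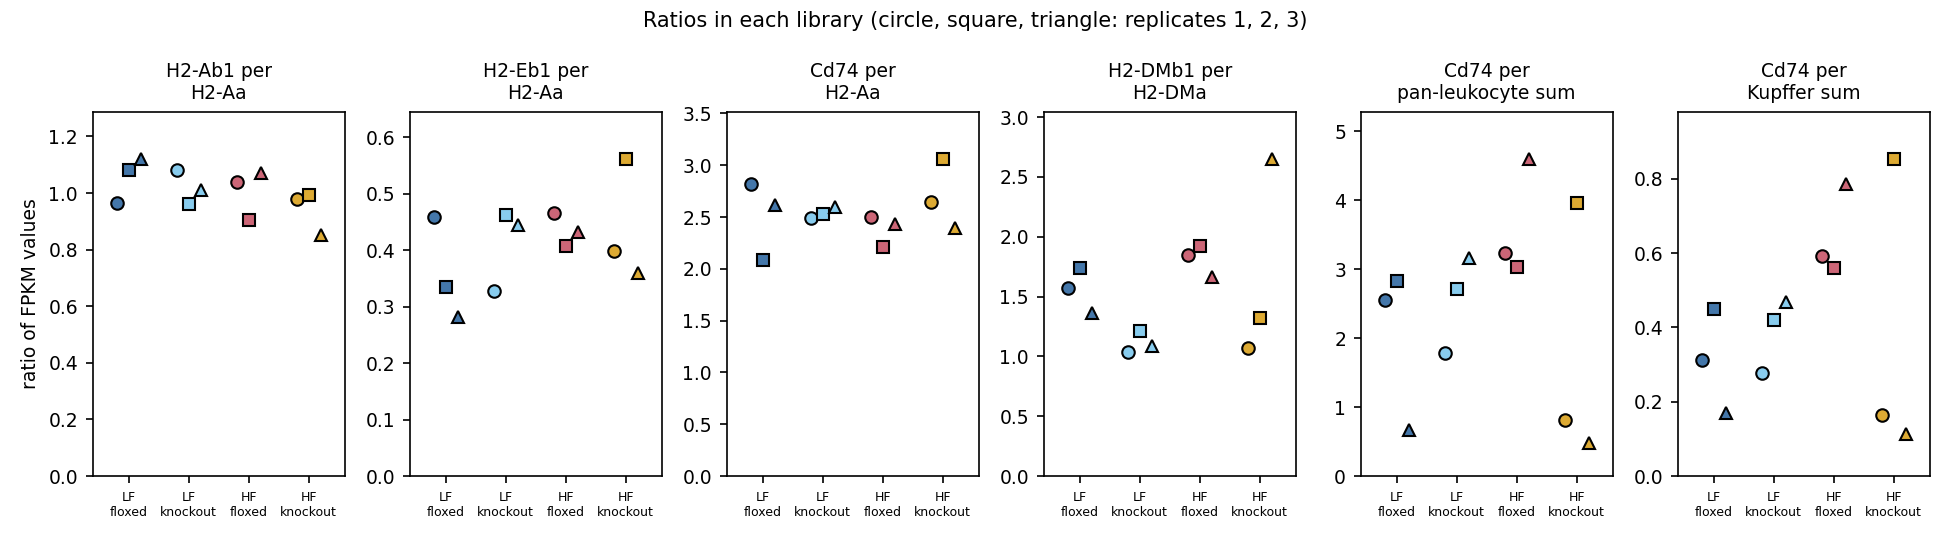
Ratios of FPKM values in each of the 12 libraries, by group, each panel with its own axis from 0. H2-Ab1 per H2-Aa stays between 0.851 and 1.12, whereas Cd74 per summed pan-leukocyte markers runs from 0.474 to 4.6.

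On the HF diet, floxed livers held about 2 to 5 times as much of each class II transcript as on the LF diet. The fold was 3.31 for H2-Aa, 3.08 for H2-Ab1, 4.23 for H2-Eb1, 3.25 for Cd74, 2.12 for H2-DMa, 2.54 for H2-DMb1 and 4.93 for Ciita. The difference was positive for 7 of 7 genes, as for 49.9% of all tested genes. For 7 of 7 the lowest HF library exceeded the highest LF library, which held for 11.5% of all tested genes by CPM and 23.6% by FPKM. Fewer cells of a type and less RNA per cell cannot be told apart in bulk tissue, so a level here may reflect either.

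In the edgeR quasi-likelihood fit, the log2 difference was 1.73 (SE 0.34) for H2-Aa, 1.62 (SE 0.36) for H2-Ab1, 2.08 (SE 0.43) for H2-Eb1 and 1.70 (SE 0.35) for Cd74. It was 1.08 (SE 0.34) for H2-DMa, 1.34 (SE 0.34) for H2-DMb1 and 2.30 (SE 0.59) for Ciita. The median of the 7 was 1.70, against -0.001 over all tested genes. At a false discovery rate of 5% edgeR called 0 of the 7 and 0% of all genes, with adjusted p from 0.177 (H2-Aa) to 0.287 (H2-DMa). At an unadjusted p below 0.05 it was 7 of 7, beside 6.85% of all genes with higher values on HF. DESeq2, on the same counts, called 6 of the 7, beside 2.03% of all genes. Its adjusted p was 0.000657 for H2-Aa, 0.000885 for H2-Eb1, 0.000988 for Cd74, 0.00318 for H2-Ab1, 0.0177 for H2-DMb1 and 0.0214 for Ciita, and 0.0992 for H2-DMa. Fitted on the 6 floxed libraries alone, edgeR called 3 of the 7 (H2-Aa, H2-Eb1 and Cd74) among 82 genes in all. These fits gave nearly the same log2 differences and different calls. The calls by DESeq2 and by the fit on floxed libraries alone were not repeated with near-identical pairs averaged.

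**Figure D3:**
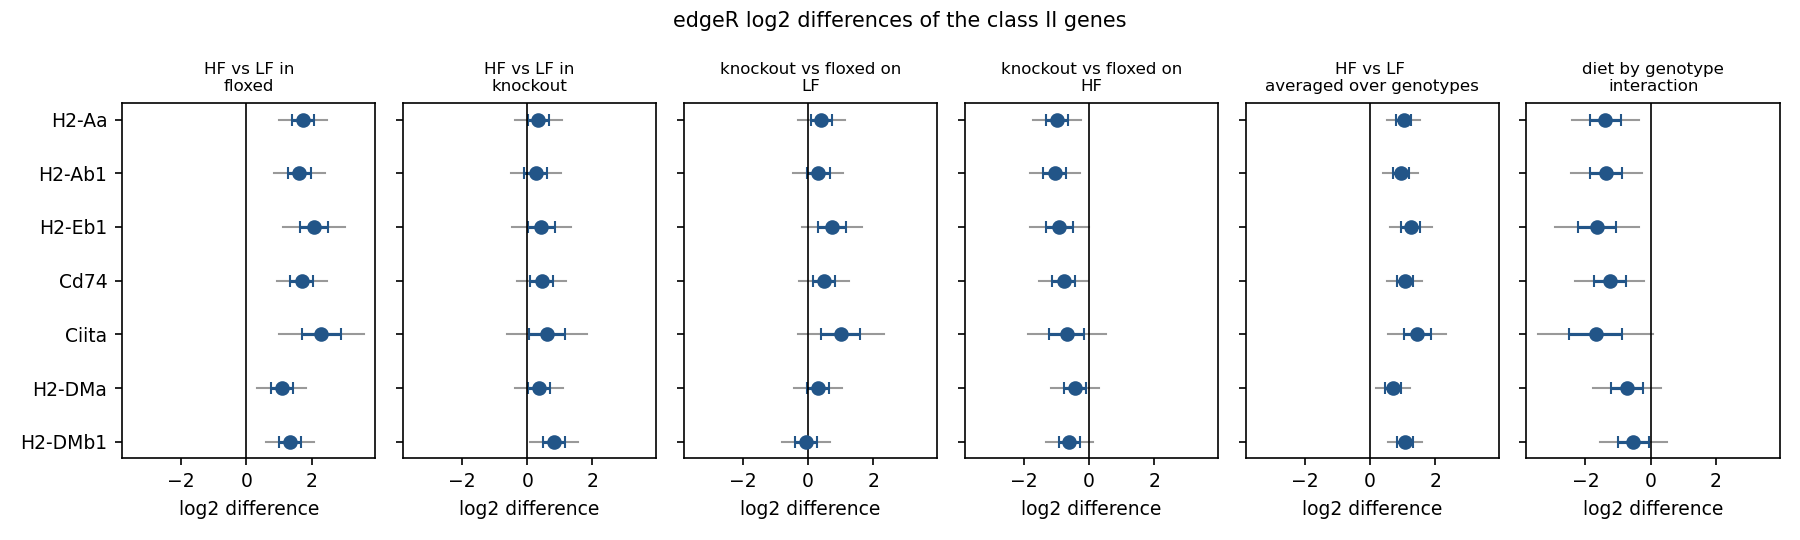
edgeR log2 differences of the 7 class II genes in 6 comparisons; points are estimates, short capped bars are 1 SE and long grey bars are 95% intervals. HF against LF lies above 0 for all 7 genes in floxed livers, and the diet by genotype interaction lies below 0 for all 7.

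In the livers labelled knockout the estimated diet differences were smaller, and the test of that contrast, the interaction, is given further on. The fold on HF against LF was 1.26 for H2-Aa, 1.20 for H2-Ab1, 1.35 for H2-Eb1, 1.36 for Cd74, 1.28 for H2-DMa, 1.75 for H2-DMb1 and 1.53 for Ciita. All 7 differences were positive, as were 52.9% over all tested genes, and their median on the log2 scale was 0.43, against 0.027. edgeR called 0 of the 7 and 0% of all genes, and DESeq2 called 0 of the 7, beside 1.05%. H2-DMb1 alone had an unadjusted edgeR p below 0.05 (0.0333, adjusted 0.375), as did 8.81% of all genes in that direction. Its HF libraries lay above its LF libraries by CPM, as in 7.17% of genes, but overlapped them by FPKM, and the other 6 overlapped by both. Single libraries moved these values. Without HF knockout 2 the median was 0.105, the log2 difference was -0.049 for H2-Eb1, -0.029 for Ciita and 0 for H2-Ab1, and 4 of 7 were higher on HF. Without LF knockout 1 the median was 0.147, with 7 of 7 higher, and without LF knockout 3 it was 0.646. The p for H2-DMb1 was not below 0.05 without LF knockout 1, LF knockout 3 or HF knockout 3.

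On the LF diet, the libraries labelled knockout and the floxed libraries overlapped for all 7 genes, where by CPM 6.53% of all tested genes lay fully higher in knockout and 6.9% fully lower. Values were higher in knockout for 6 of 7, beside 47.4% of all tested genes. The fold of knockout over floxed was 1.33 for H2-Aa, 1.24 for H2-Ab1, 1.66 for H2-Eb1, 1.40 for Cd74, 1.24 for H2-DMa, 2.01 for Ciita and 0.953 for H2-DMb1. The sign for H2-DMb1 turned when values were compared as log2 FPKM (0.049 with a pseudocount of 1, 0.068 with 0.1). The median log2 difference was 0.407, against -0.019 over all tested genes. edgeR called 0 of the 7, with adjusted p from 0.929 to 0.99, beside 0.0159% of all genes (Cyp2b9 and Morf4l1b, named because they are the whole count). None of the 7 had an unadjusted p below 0.05, where 5.13% of all genes had one in either direction, and DESeq2 called 0 of the 7, beside 0.272%. The 95% interval for H2-Eb1 ran from -0.18 to 1.66 on the log2 scale, which includes 0 and differences as large as the upper bound. Without LF knockout 1, 7 of 7 were higher, the median was 0.697, and 3 of 7 (H2-Aa, H2-Eb1 and Cd74) had an unadjusted p below 0.05. Without LF floxed 1, LF knockout 2 or LF knockout 3 the median was 0.154, 0.267 or 0.221, and with near-identical pairs averaged it was 0.24.

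On the HF diet, the order of the genotypes was the opposite, and the class II transcripts were lower in the libraries labelled knockout for 7 of 7 genes, beside 46.6% of all tested genes. Floxed livers held 1.97 times as much H2-Aa, 2.07 times as much H2-Ab1, 1.89 times as much H2-Eb1 and 1.71 times as much Cd74. For Ciita the factor was 1.60, for H2-DMb1 1.52 and for H2-DMa 1.34. For H2-Aa and H2-Ab1 all 3 knockout libraries lay below all 3 floxed libraries, as in 5.35% of all tested genes by CPM and 7.08% by FPKM, and the other 5 genes overlapped.

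The edgeR log2 difference was -0.98 (SE 0.33, p 0.0123, adjusted p 0.598) for H2-Aa and -1.05 (SE 0.35, p 0.0114, adjusted p 0.598) for H2-Ab1. It was -0.91 (p 0.0482, adjusted p 0.647) for H2-Eb1 and -0.77 (p 0.0456, adjusted p 0.638) for Cd74. For Ciita, H2-DMb1 and H2-DMa it was -0.68, -0.60 and -0.42, with unadjusted p of 0.234, 0.0941 and 0.23. The median was -0.773, against 0.028 over all tested genes. At a false discovery rate of 5% edgeR called 0 of the 7 and 0% of all genes, and DESeq2 called 0 of the 7, beside 0.574%. At an unadjusted p below 0.05 it was 4 of 7, beside 3.06% of all genes with lower values in knockout. With near-identical pairs averaged that count was 2 of 7, and it was 2 with DESeq2's size factors in edgeR. It was also 2 without any 1 of HF floxed 1, HF floxed 2, HF knockout 1, HF knockout 3, LF floxed 2, LF floxed 3 and LF knockout 2. Without HF knockout 2 it was 5, and the median was -1.19.

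Averaged over the genotypes, HF livers held 1.64 (H2-DMa) to 2.75 times (Ciita) as much of each transcript as LF livers. The difference was positive for 7 of 7, as for 51.5% of all tested genes, and the median was 1.07 on the log2 scale, against 0.011. edgeR called 0 of the 7, with adjusted p from 0.20 to 0.223, beside 0.00794% of all genes (Lcn2, named because it is the whole count). All 7 had an unadjusted p below 0.05, beside 10.4% of all genes with higher values on HF, and DESeq2 called 6 of 7 (all but H2-DMa), beside 3.22%. When the third HF floxed and the first HF knockout library were left out together, edgeR called 5 of the 7 (H2-Aa, H2-Eb1, Cd74, Ciita and H2-DMb1) and 5.32% of all genes.

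The diet by genotype interaction asks whether the diet difference itself differed between the genotypes. It was negative for 7 of 7 genes, as for 46% of all tested genes, and ran from -0.53 (SE 0.47) for H2-DMb1 to -1.69 (SE 0.81) for Ciita on the log2 scale. The value was -1.39 (SE 0.47, adjusted p 0.434 by edgeR) for H2-Aa, so that the diet fold in floxed livers was 2.62 times that in knockout livers. The median was -1.362, against 0.047 over all tested genes. edgeR called 0 of the 7, beside 0.0159% of all genes (Gnai1 and Morf4l1b, named because they are the whole count), and DESeq2 called 0 of the 7, beside 0.855%. At an unadjusted p below 0.05 it was 4 of 7 (H2-Aa, H2-Ab1, H2-Eb1 and Cd74), beside 4.34% of all genes with a negative value. With each near-identical pair averaged into 1 sample it was 0 of 7. The comparisons above share their libraries, so they are not independent of each other.

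The summed markers of leukocytes and of Kupffer cells stood high in 3 libraries that did not have high class II values. The summed FPKM of 5 pan-leukocyte markers was 13.2, 19.7 and 84.0 in LF floxed libraries 1 to 3 and 22.5, 33.7 and 31.3 in LF knockout. On HF it was 72.0, 66.9 and 29.4 in floxed and 90.9, 38.3 and 173 in knockout livers. LF floxed 3, HF knockout 1 and HF knockout 3 had the highest sums. Cd74 per unit of that sum was 0.666, 0.808 and 0.474 in those 3 libraries, and 1.78 to 4.6 in the other 9.

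The 10 Kupffer cell markers summed to 107, 124 and 330 FPKM in floxed and 145, 217 and 211 in knockout livers on LF. On HF they were 393, 364 and 172 in floxed and 447, 178 and 716 in knockout. Cd74 per unit of it was 0.169 in LF floxed 3, 0.164 and 0.114 in HF knockout 1 and 3, and 0.559 to 0.787 in HF floxed. It was 0.853 in HF knockout 2, the highest of the 12 libraries. Clec4f, a Kupffer cell marker, was between 10.84 and 41.6 FPKM in each library. The 10 dendritic cell markers summed to 1.13 to 6.24 FPKM in floxed and 2.19 to 3.77 in knockout livers on LF, and 2.39 to 5.01 and 4.04 to 14.1, respectively, on HF. Of these 10 markers, Itgax reached 8.54 FPKM and Batf3 2.51, both in HF knockout 3, and Zbtb46 was at 0.4 to 0.98 in each library. The other listed markers did not exceed 0.59 FPKM. Among them, Xcr1 did not exceed 0.37 and Flt3 did not exceed 0.27, while Siglech was at 0 in 3 libraries. The 7 B cell markers summed to 1.19 to 4.62 in floxed and 2.69 to 4 in knockout livers on LF, and 1.34 to 4.27 and 3.64 to 7.72, respectively, on HF.

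**Figure D4:**
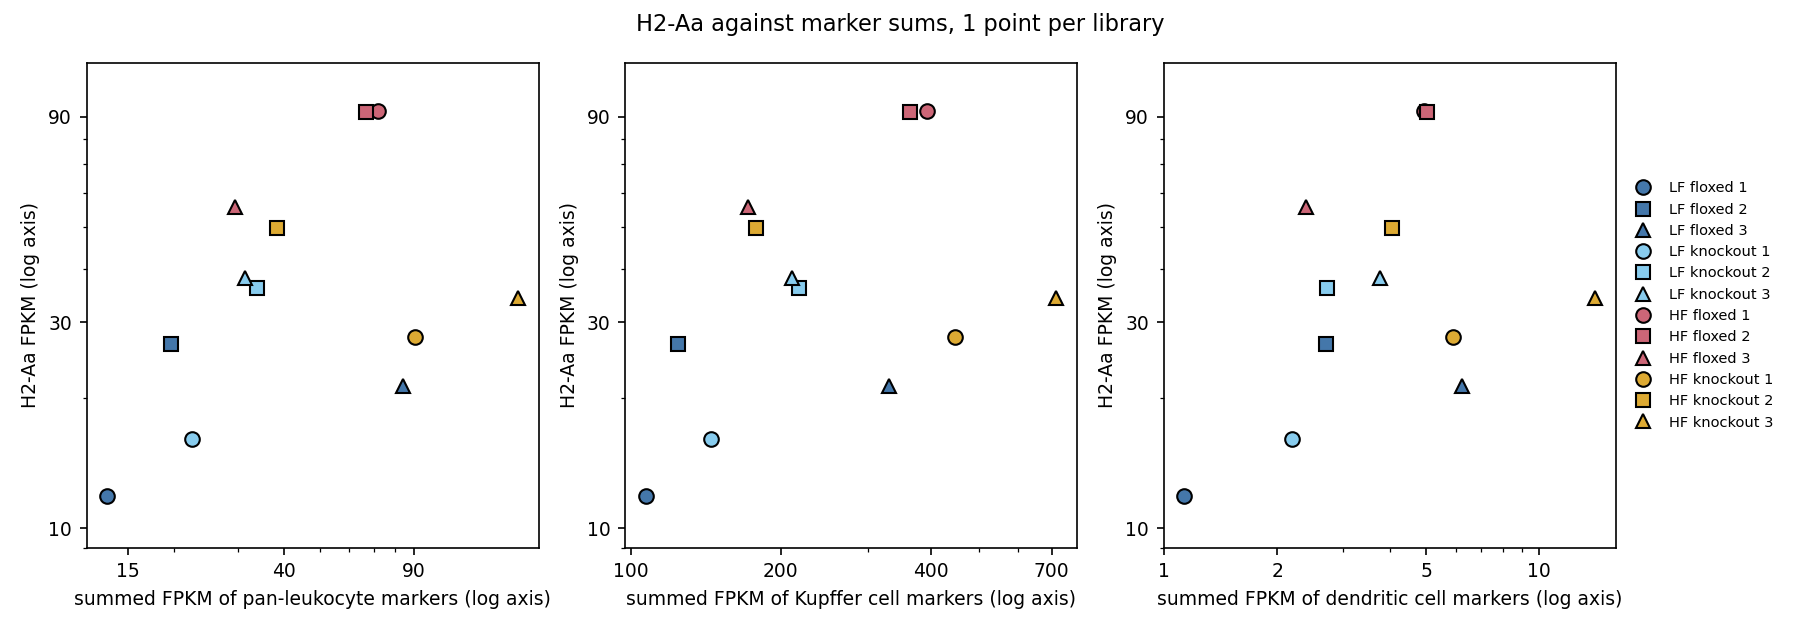
H2-Aa FPKM against the summed FPKM of pan-leukocyte, Kupffer cell and dendritic cell markers, 1 point per library, all axes logarithmic. HF knockout 1 and 3 and LF floxed 3 lie to the right of libraries with similar H2-Aa: their pan-leukocyte sums are 90.9, 173 and 84.0 FPKM, with H2-Aa at 27.75, 34.21 and 21.32.

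In the genotype comparison on HF, where the 7 class II genes were lower in knockout, markers of several lists went the other way. Over all tested genes, 46.6% were lower in knockout. Of the tested markers, 10 of 10 for Kupffer cells, 5 of 5 for all leukocytes and 6 of 6 for B cells had higher values in knockout, with median log2 differences of 0.659, 1.082 and 0.642. For dendritic cells it was 6 of 7, with a median of 0.67, and for T cells 4 of 5, with a median of 0.195. At an unadjusted edgeR p below 0.05 it was 2 of the 10 Kupffer cell markers, beside 963 of all 12587 tested genes in either direction. None of the leukocyte, B cell, dendritic cell and T cell markers had such a p. No marker of these lists passed at a false discovery rate of 5%. The monocyte and macrophage list was divided, with 4 higher and 4 lower in knockout (median 0.301), as was the sinusoidal endothelial list, with 3 higher and 2 lower (median 0.068). Of the bile duct cell markers 1 was higher and 3 lower (median -0.412), and of the hepatocyte markers 4 were higher and 2 lower (median 0.861). In the diet comparison in floxed livers, the median log2 difference was 0.519 for the Kupffer cell markers, 0.17 for the pan-leukocyte markers, 0.07 for the dendritic cell markers and -0.203 for the B cell markers. It was 1.762 for the monocyte and macrophage markers and 0.438 for the endothelial ones, beside 1.70 for the class II genes. In the diet comparison in knockout livers it was 1.252, 1.805, 1.241 and 1.121 for the first 4 lists, 1.467 for monocytes and macrophages and -0.07 for endothelium, beside 0.43. There, 6 of 10 Kupffer cell and 5 of 5 pan-leukocyte markers had an unadjusted edgeR p below 0.05. So did 1 of 7 dendritic cell, 0 of 6 B cell, 4 of 8 monocyte and macrophage and 1 of 5 endothelial markers. All of these were higher on HF, beside 1 of 7 class II genes and 8.81% of all genes in that direction. None of them passed at a false discovery rate of 5%. The part of these cells in the class II differences was not tested.

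The RNA of the promoter factors did not share the class II pattern as a group. Of Rfx5, Rfxank and Rfxap (the RFX complex), Nfya, Nfyb and Nfyc (NF-Y) and Creb1, 3 had higher and 4 lower values on HF in floxed livers, with a median log2 difference of -0.005. Over all tested genes, 49.9% had higher values there. None of the 7 passed at a false discovery rate of 5% in any of the 6 comparisons. At an unadjusted edgeR p below 0.05, Nfya was higher by 0.59 (adjusted p 0.395), and Nfyb and Rfx5 differed by -0.75 (adjusted p 0.262) and -0.60 (adjusted p 0.314). These values are for the diet in floxed livers, where 1532 of all 12587 tested genes had such a p in either direction. In the HF genotype comparison 0 of 7 had such a p, beside 963 of all tested genes. Over the 12 libraries the log2 CPM of Nfyb had r = -0.886 with the mean class II level, Rfx5 -0.624, Nfya 0.659 and Rfxank 0.723.

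Ifng, the gene of interferon gamma itself, was taken as 0 in 8 libraries and stood at no more than 0.11 FPKM in the rest. Ifngr1, a chain of its receptor, had a higher mean in knockout than in floxed livers on HF (log2 difference 1.04, SE 0.40, edgeR adjusted p 0.61). It read 9.01, 35.16 and 14.19 FPKM in HF knockout and 12.55, 12.31 and 5.85 in HF floxed, and these groups overlapped. For the diet in floxed livers Ifngr1 differed by 0.53 (SE 0.40, edgeR adjusted p 0.602). No tested gene of the interferon gamma list passed at a false discovery rate of 5% in these 2 comparisons.

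Lysosomal processing genes were divided in direction. For the diet in floxed livers, 6 of 10 were higher and 4 lower, with a median log2 difference of 0.212. Over all tested genes, 49.9% were higher. Lgmn, an endopeptidase that cleaves antigens and the invariant chain, differed by 0.78 (SE 0.32, edgeR adjusted p 0.378), and Lamp1, a lysosomal membrane protein, by 0.41 (SE 0.18, edgeR adjusted p 0.395). These 2 had an unadjusted p below 0.05, as did 6.85% of all genes with higher values on HF. Ctss, which trims the invariant chain in antigen-presenting cells, read 10.73, 12.09 and 35.4 FPKM in LF floxed, 60.96, 59.11 and 25.07 in HF floxed and 34.66, 21.75 and 76.04 in HF knockout. Ctss differed by 1.02 (SE 0.52, edgeR adjusted p 0.447) for the diet in floxed livers and by -0.002 (SE 0.51) between the HF genotypes. For the diet in knockout livers 7 of 10 were higher, beside 52.9% of all tested genes, with a median of 0.206. There 2 had an unadjusted p below 0.05, Lgmn with 1.30 (SE 0.33, edgeR adjusted p 0.344) and Ifi30, a thiol reductase that unfolds antigens, with 1.16 (SE 0.46, edgeR adjusted p 0.361). Over all genes, 8.81% had such a p with higher values on HF. For the genotype on HF, 0 of the 10 had an unadjusted p below 0.05, beside 963 of all 12587 tested genes in either direction.

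Of the genes that govern class II at the cell surface, March8, a ubiquitin ligase able to remove class II from the surface, was at 12.38, 14.47 and 20.64 FPKM in HF knockout and 25.42, 28.76 and 20.76 in HF floxed. Its 3 knockout libraries lay below the floxed ones by a narrow margin, and the log2 difference was -0.55 (SE 0.16, edgeR p 0.00627, adjusted p 0.598). March1, the ligase known for class II in dendritic cells and B cells, differed by 1.29 (SE 0.63, edgeR adjusted p 0.684) in the same comparison. Of 5 costimulation genes, 5 had higher values in HF knockout than in HF floxed, with a median log2 difference of 0.679. Over all tested genes, 46.6% were lower in knockout. Cd40, a receptor for T cell help, alone had an unadjusted p below 0.05 there (2.21, SE 0.90, edgeR adjusted p 0.616). It read 0.46, 3.8 and 0.76 FPKM in HF knockout and 0.64, 0.3 and 0.2 in HF floxed. The groups overlapped, and HF knockout 2 stood far above the rest.

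The remaining class II genes that were listed were near 0. H2-Oa and H2-Ob, which encode the inhibitor of DM, stood at 0.06 to 0.86 and 0 to 0.54 FPKM, and H2-Eb2 at 0 to 0.22. H2-Ob alone of them passed the filter, and its log2 difference of 0.28 (SE 1.02, edgeR adjusted p 0.933) for the diet in floxed livers is too uncertain to place it.

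In the RefSeq gene order (GRCm38.p6), 5 of the class II genes lie in one stretch from H2-DMa to H2-Eb1, with 6 other genes of the files among them: H2-DMb2, Psmb9, Tap1, Psmb8, Tap2 and H2-Ob. Psmb8, Psmb9, Tap1 and Tap2 serve class I presentation, as subunits of the immunoproteasome and of the peptide transporter. Of the 5 tested, 0 had an unadjusted edgeR p below 0.05 for the diet in floxed livers, where the median log2 difference was 0.282, or for the genotype on HF, where it was 0.313. For Psmb9 the values were 0.52 (edgeR adjusted p 0.472) and -0.11, and for Tap1 0.51 (adjusted p 0.516) and 0.18. The 5 class II genes of the stretch differed by 1.08 to 2.08 and by -1.05 to -0.42. Of all 12587 tested genes, 1532 and 963 had an unadjusted edgeR p below 0.05 in these 2 comparisons, in either direction.

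The 10 genes whose log2 CPM was most like the mean class II profile over the 12 libraries were Tnc (r = 0.938), Krt8 (0.935), Col6a2 (0.909), Micu2 (0.904), Olfml3 (0.90), Coq2 (0.899), Prdx3 (0.895), Pcolce (0.893), Cpxm1 (0.893) and Hr (0.889). They were chosen for this likeness among 12580 genes that are no members, share their libraries and depth with it, and carry no test. Tnc encodes the matrix protein tenascin C, Col6a2 a collagen VI chain, Pcolce an enhancer of procollagen processing and Krt8 a keratin of hepatocytes and bile duct cells. Krt8 read 71.25, 88.77 and 85.98 FPKM in floxed and 92.45, 123.34 and 119.54 in knockout livers on LF. In HF livers it read 301.66, 291.68 and 139.11 in floxed and 107.49, 202.38 and 159.77 in knockout. Within LF floxed, HF floxed and HF knockout its libraries stood in the same order as those of H2-Aa. Tnc was scarce, with group means of 0.15 ± 0.0917 in floxed and 0.37 ± 0.277 in knockout livers on LF, and 1.00 ± 0.476 and 0.507 ± 0.349 FPKM, respectively, on HF (SD, n = 3 each). With the same profile, r ran from 0.019 (Cd9) to 0.888 (Gpnmb) over the monocyte and macrophage markers, where Ccr2 had 0.796 and Trem2 0.785. It ran from -0.438 (Vsig4) to 0.602 (Adgre1) for Kupffer cells, from 0.286 (Coro1a) to 0.504 (Laptm5) for all leukocytes and from -0.314 (Zbtb46) to 0.562 (Flt3) for dendritic cells. For B cell markers it ran from 0.139 (Cd79b) to 0.446 (Cd22), for T cell markers from -0.237 (Cd4) to 0.632 (Cd8a) and for sinusoidal endothelium from -0.327 (Clec4g) to 0.714 (Lyve1). For bile duct cell markers it ran from 0.217 (Sox9) to 0.794 (Krt19) and for hepatocyte markers from -0.77 (Ttr) to 0.082 (Cyp3a11). With group means removed, the B cell markers had r from 0.435 (Ms4a1) to 0.796 (Cd22), and the T cell markers from -0.59 (Lag3) to 0.813 (Cd3e). It then ran from -0.08 (Itgam) to 0.681 (Ccr2) for monocytes and macrophages and from 0.072 (Xcr1) to 0.543 (Clec9a) for dendritic cells. For Kupffer cells it ran from -0.317 (Marco) to 0.323 (Cd5l), for all leukocytes from 0.134 (Cd52) to 0.374 (Ptprc) and for sinusoidal endothelium from -0.36 (Clec4g) to 0.468 (Lyve1). The bile duct cell markers then had r from 0.206 (Sox9) to 0.408 (Krt19), and the hepatocyte markers from -0.676 (Ttr) to 0.327 (Apoa1).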

How the data were processed

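For each library the authors deposited estimated counts per gene and the FPKM made from them, in 1 table. Per the labels' protocols, total RNA was extracted from flash-frozen liver and sequenced at BGI with its standard protocols. The submitters' processing notes name genome build mm9. Which aligner and counter were used, and in which version, is not given in the sources used here. Genes below 0.01 FPKM are not listed in the files and were taken as 0. Expected counts were rounded to whole numbers and loci without a gene name left out. Genes were filtered with filterByExpr, normalized by TMM and fitted in 1 quasi-likelihood model over all 12 libraries (edgeR 4.0.16, R 4.3.3), with 8 residual degrees of freedom. The 6 comparisons were adjusted by Benjamini and Hochberg over all tested genes, with calls at a false discovery rate of 5%. SE is the log2 difference divided by the square root of the F statistic. The biological coefficient of variation was 34.8%, and the depth allows no firm statement below a few counts. Alternatives were DESeq2 1.42.0, limma 3.58.1 on log2(FPKM + 1) and log2(FPKM + 0.1) for genes of at least 1 FPKM in 3 libraries (which leaves Ciita out), other filters and scalings, a replicate block, and leaving out libraries. The edgeR step was tested on simulated data. All 7 members are named, the other lists are given by counts with any gene of them that bears on a result, and the 10 most alike genes by Pearson r. The members and lists were chosen with earlier results of these data known. Replicate numbers are taken from the titles.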

Additional observations from a re-analysis of the deposited data

How the results depend on the processing

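The median log2 difference of the 7 class II genes kept its sign in all 6 comparisons under each alternative and each left-out library: 1.474 to 1.97 for the diet in floxed livers, 0.105 to 0.646 for the diet in knockout livers, 0.154 to 0.697 for the genotype on LF, -1.193 to -0.626 for the genotype on HF, 0.916 to 1.198 for the averaged diet and -1.631 to -1.073 for the interaction. The count of genes called over the whole table was unstable. In the order diet in floxed, diet in knockout, genotype on LF, genotype on HF, averaged diet and interaction, edgeR called 0, 0, 2, 0, 1 and 2 genes and DESeq2 254, 126, 34, 69, 403 and 107. Leaving out the third HF floxed and the first HF knockout library together gave 158, 2, 7, 3, 682 and 5. Leaving out 1 library gave 0 to 14, 0 to 10, 0 to 13, 0 to 14, 0 to 7 and 1 to 17, with the high ends without HF floxed 3, HF knockout 3, LF knockout 1, HF knockout 3, HF knockout 1 and HF knockout 3. Fitting only the groups compared gave 82 for the diet in floxed livers and 11 for the genotype on LF. For the diet in floxed livers, limma with a pseudocount of 0.1 gave 1 and no filter gave 1. For the genotype on LF, limma gave 0 with a pseudocount of 1 and 1 with 0.1. With near-identical pairs averaged, the genotype on LF, the averaged diet and the interaction gave 0, 0 and 0. The cause of these changes was not tested. For the genotype on LF, H2-DMb1 (log2 difference -0.07) turned to 0.049 and 0.068 under limma with pseudocounts of 1 and 0.1, and to 0.031, 0.141 and 0.187 without LF floxed 2, LF floxed 3 or LF knockout 1 (range over left-out libraries -0.329 to 0.187). For the diet in knockout livers without HF knockout 2, H2-Ab1 was 0, H2-Eb1 -0.049 and Ciita -0.029, and their highest values with another library left out were 0.447, 0.659 and 0.948. The labels do not say whether the replicate numbers pair the libraries. Of 18 correlations between same-numbered libraries' deviations from their group means, 3 exceeded 0.1, and the 18 ran from -0.331 to 0.404. Those between libraries of different number ran from -0.551 to 0.55. A pairing need not show in such correlations, so they do not settle the question. With the replicate number as a block, the genotype on LF, the averaged diet and the interaction gave 0, 0 and 1 called genes, and the class II genes kept their signs.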

Other observations

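Markers of monocytes and of macrophages of injured liver, another immune group, were mostly higher on HF in both genotypes. Of the 8 tested, 8 had higher values on HF in knockout livers and 6 in floxed livers, beside 52.9% and 49.9% of all tested genes. The median log2 differences were 1.467 and 1.762. In each genotype 4 had an unadjusted edgeR p below 0.05, all higher on HF. This held for 8.81% of all genes in knockout and 6.85% in floxed livers. None of the 8 passed at a false discovery rate of 5%. Gpnmb, a transmembrane glycoprotein of lipid-laden macrophages, was picked out after its values were seen. It was at 0.02 to 0.11 FPKM in LF floxed and 0.05 to 0.75 in LF knockout livers, and at 5.7, 4.39 and 1.47 in HF floxed and 0.15, 0.99 and 1.27 in HF knockout livers. All HF floxed libraries lay above the other 9, as for H2-Aa, and its log2 CPM correlated with the mean class II profile at r = 0.888 over the 12 libraries. Trem2, a lipid receptor of such macrophages, read 6.17, 7.56 and 2.38 FPKM in HF floxed and 2.11, 1.79 and 6.63 in HF knockout livers, and these groups overlapped. Spp1, which encodes osteopontin, stood at 743.15 FPKM in HF knockout 2, against 17.67 to 103.27 in the other 11 libraries. That library also had the highest H2-Aa, H2-Eb1 and Cd74 values of its group. Its summed bile duct cell markers (11.8 FPKM) and hepatocyte markers (117000 FPKM) were the highest of the 12 libraries. Its Kupffer cell markers summed to 178 FPKM, against 447 and 716 in HF knockout 1 and 3. Which cells the Spp1 RNA came from was not tested.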
